A study of Mus musculus with 6 samples.

Results

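The 9 genes described here are the CC chemokine ligands Ccl2, Ccl3, Ccl4, Ccl5, Ccl7, Ccl8 and Ccl9 and the receptors Ccr1 and Ccr2, chosen by name from 18437 genes with a deposited value. All 9 were found. They were measured by RNA sequencing of ribosomal RNA-depleted RNA from tongue tumours of C57BL/6 mice, made by orthotopic injection of 4MOSC1, an oral squamous cell carcinoma line of the mouse used as a head and neck cancer model. The LIGHT group (n = 3 libraries) received 4MOSC1 cells overexpressing LIGHT, the TNF family ligand encoded by Tnfsf14, and the control group (n = 3 libraries) received 4MOSC1-con control cells. Both groups are bulk tumours in a host with its own immune system, so each library holds tumour cells, infiltrating leukocytes and tongue tissue. The sources used here do not give the vector and promoter that drive LIGHT, the number of clones or the age of the mice. The labels tie no library to a single mouse, so p-values measure the spread between these libraries, which may be technical.

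CC chemokines are small secreted proteins that bind Gi-coupled receptors on leukocytes and are held on heparan sulfate of vessel walls and matrix, where they direct cell movement. Ccr2 is the receptor by which classical, Ly6C-high monocytes leave bone marrow and enter inflamed tissue, and Ccl2, Ccl7 and, in mice, Ccl12 are its ligands. Ccr1, on monocytes, macrophages and neutrophils, binds Ccl3, Ccl5, Ccl7 and Ccl9. Ccl4 is a close relative of Ccl3, and both are made by activated macrophages and T cells. Mouse Ccl8 is a close relative of Ccl2 by sequence family and is known as a ligand of Ccr8.

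Of the 9 genes 2 rose in LIGHT tumours, the ligand Ccl7 and the receptor Ccr2, and 0 fell (limma, Benjamini-Hochberg adjusted p under 0.05 over all 13167 genes tested). Among all genes tested 17.7% were called higher in LIGHT tumours and 5.41% lower, so 2 of 9 (22.2%) is a share near the background. At an unadjusted limma p under 0.05 there were 4 of the 9 genes, all higher in LIGHT tumours, against 26.9% of all tested genes higher and 9.9% lower at that p (36.8% in either direction). The LIGHT libraries lay wholly above the control libraries in 3 of the 9, Ccl7, Ccr1 and Ccr2, and wholly below in 0, where 29.6% and 11.6% of all tested genes did so (41.2% in either direction). The median log2 fold change of the 9 genes was 0.42, against 0.09 for all genes tested. The fold change was positive in 7 of the 9, as it was in 62.2% of all genes tested. The deposited scaling matters for this background: 76.6% of called genes were higher in LIGHT tumours, against 44.9% if the libraries were scaled by a trimmed mean and 43.6% if their quantiles were equalized. Either scaling moved the median of all genes to -0.04. The median of the 9 genes was then 0.28 and 0.32, with 6 of the 9 positive. These genes were all above the filter of 1 TPM in every library, so the filter set no direction among them. In bulk tissue a larger number of expressing cells and more RNA per cell cannot be told apart. TPM is a length-corrected share of all transcripts in a library and holds no read number, so depth is unknown.

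**Figure D1:**
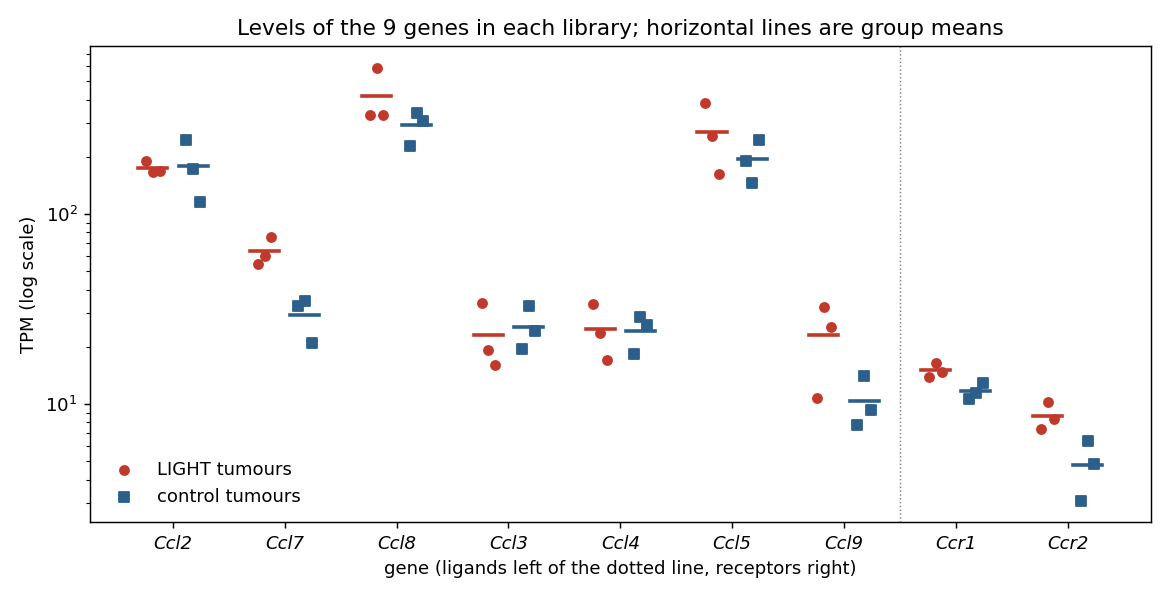
Level of each of the 9 genes (TPM, log axis) in the 3 LIGHT libraries (circles) and the 3 control libraries (squares), with lines at the group means. Ccl8, Ccl5 and Ccl2 lie above 100 TPM in each library, and the groups are separated for Ccl7, Ccr1 and Ccr2.

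Group means followed a steep order. Ccl8 had the highest mean of the ligands, at 418 ± 149 TPM in LIGHT tumours and 293 ± 57.5 TPM in control tumours (mean ± SD, n = 3 each), the 332nd and 417th highest mean of all genes listed. Ccl5 and Ccl2 came next, and in both groups their ranges overlapped with each other and, for Ccl5, with that of Ccl8. Ccl8 was not the highest in every library: Ccl5 was above it in LIGHT replicate 1, and Ccl2 in control replicate 1. Ccl2, Ccl5 and Ccl8 together made up 83.1% to 88.2% of the summed TPM of the 7 ligands in LIGHT libraries and 85.6% to 89.4% in control libraries. Ccl7, Ccl3, Ccl4 and Ccl9 had group means between 10.4 and 63.6 TPM. The receptors had between 3.10 and 16.5 TPM in any library, and the control mean of Ccr1 (11.6 TPM) was close to that of Ccl9 (10.4 TPM).

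Ccl7, a ligand of Ccr2 and Ccr1, had 54.8, 60.2 and 75.9 TPM in the LIGHT libraries, against 33.0, 34.7 and 20.8 TPM in the control libraries. Every LIGHT library was above every control library. The LIGHT mean exceeded the control mean by a factor of 2.16, and the log2 fold change on the log2(TPM + 1) scale was 1.10 ± 0.20 (SE), at a limma adjusted p = 0.00972. A two-sided exact permutation test on the same values gave p = 0.1, which is the lowest p possible with 20 assignments. The call of Ccl7 held without each of the 6 libraries in turn (limma adjusted p from 0.0147 to 0.0304), and its share of the summed ligand TPM was 5.2% to 9.5% in LIGHT libraries and 2.8% to 4.5% in control libraries.

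Ccl2, the best known monocyte attractant and the gene next to Ccl7 on the chromosome, had 190, 166 and 168 TPM in the LIGHT libraries, against 246, 172 and 116 TPM in the control libraries. The 3 LIGHT values all fell inside the range of the controls. Its log2 fold change was 0.037, with a 95% interval from -0.52 to 0.59 (limma adjusted p = 0.93), so a change of Ccl2 as large as the estimate for Ccl7 lies outside that interval. The coefficient of variation was 7.7% among LIGHT libraries and 36.6% among control libraries. The ratio of Ccl7 to Ccl2 was 0.288, 0.362 and 0.452 in LIGHT libraries, against 0.134, 0.202 and 0.179 in control libraries. This ratio, chosen after its values were seen from 16 ratios computed, gave an exact two-sided permutation p = 0.1, the smallest possible, and 0.4 adjusted over the 16.

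Ccl8 had 332, 591 and 333 TPM in the LIGHT libraries, against 229, 340 and 310 TPM in the control libraries. LIGHT replicate 2 stood above the rest and the other two LIGHT values lay within the control range. The log2 fold change was 0.48 (95% interval -0.09 to 1.04, limma adjusted p = 0.2).

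**Figure D2:**
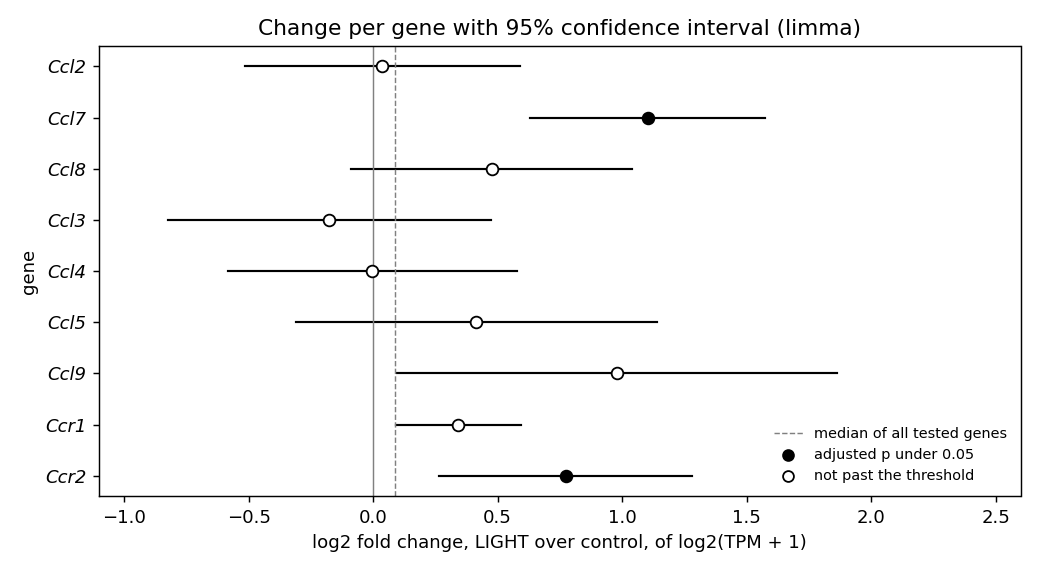
Log2 fold change of LIGHT over control tumours for each gene, on the log2(TPM + 1) scale, with 95% limma confidence intervals; filled points have an adjusted p under 0.05. Ccl7 and Ccr2 are filled, and the interval of Ccl2 runs from -0.52 to 0.59.

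Ccl3, Ccl4 and Ccl5 did not pass the threshold. Ccl3 had 33.9, 19.3 and 16.1 TPM in LIGHT libraries, against 19.6, 32.6 and 24.2 TPM in control libraries. Ccl4 had 33.5, 23.6 and 17.1 TPM in LIGHT libraries, against 18.2, 28.9 and 26.0 TPM in control libraries. The groups overlapped for both genes, and LIGHT replicate 1 was the highest and LIGHT replicate 3 the lowest of the 6 libraries for each. The ratio of Ccl4 to Ccl3 stayed between 0.988 and 1.22 in LIGHT libraries and between 0.884 and 1.07 in control libraries. Their log2 fold changes were -0.18 for Ccl3 (95% interval -0.82 to 0.47, limma adjusted p = 0.688) and -0.0026 for Ccl4 (-0.58 to 0.58, limma adjusted p = 0.996).

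Ccl5, made by activated T and natural killer cells and by many other cells, had 386, 259 and 162 TPM in LIGHT libraries, against 190, 145 and 246 TPM in control libraries. The groups overlapped, and LIGHT replicate 3 was below 2 of the 3 controls. Its log2 fold change was 0.42 (95% interval -0.31 to 1.14, limma adjusted p = 0.373). Beside it, 10 of the 11 tested T and natural killer cell markers rose, against 17.7% of all genes tested. The 12 markers found summed to 331 to 416 TPM in LIGHT libraries and 84.0 to 207 TPM in control libraries. The part of these cells in the values of Ccl3, Ccl4 and Ccl5 was not tested.

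Ccl9, a rodent chemokine that acts on Ccr1, had 10.7, 32.6 and 25.6 TPM in LIGHT libraries, against 7.78, 14.1 and 9.29 TPM in control libraries. LIGHT replicates 2 and 3 were above all controls and LIGHT replicate 1 was not. The mean was higher by a factor of 2.21 in LIGHT tumours, close to the fold of Ccl7, but the coefficient of variation among LIGHT libraries was 48.7%, against 17.3% for Ccl7. The log2 fold change was 0.98 (95% interval 0.09 to 1.86) and missed the adjusted threshold (limma adjusted p = 0.105). Without LIGHT replicate 1 it was 1.43 and passed (limma adjusted p = 0.0119). Its neighbour Ccl6, also highest in LIGHT replicate 2, had 32.5, 97.0 and 56.2 TPM in LIGHT libraries, against 19.1, 53.0 and 32.4 TPM in control libraries (limma adjusted p = 0.238). In LIGHT replicate 2, where Ccl8, Ccl9 and Ccl6 were highest, the 12 neutrophil markers summed to 456 TPM, against 2255 to 2988 TPM in the other LIGHT libraries and 1421 to 1839 TPM in control libraries. S100a8 and S100a9, which other cells also express, made up most of these sums. The 10 other neutrophil markers summed to 97.7 TPM in LIGHT replicate 2, against 49.3 and 86.2 TPM in the other LIGHT libraries and 72.3 to 109 TPM in control libraries, so that library lay within their range. LIGHT replicate 2 also had the highest sum of the 6 libraries for macrophage (2152 TPM), skeletal muscle (7634 TPM) and red cell genes (2086 TPM). Its sum for squamous epithelial markers (20154 TPM) was the lowest. Whether the composition of LIGHT replicate 2 bears on Ccl8, Ccl9 and Ccl6 was not tested.

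**Figure D3:**
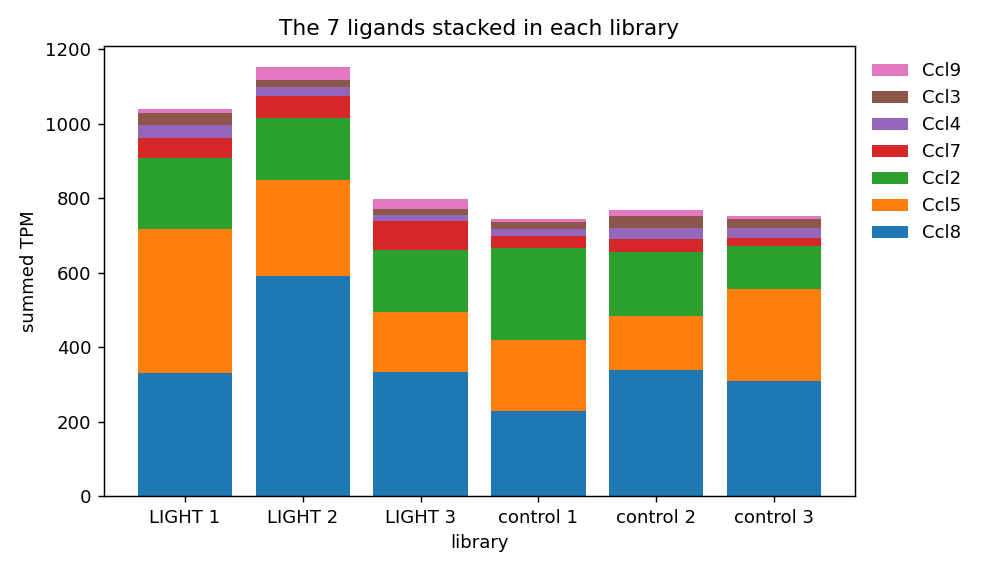
Summed TPM of the 7 ligands in each library, stacked by gene, with LIGHT libraries on the left. The sums run from 797 to 1152 TPM in LIGHT libraries and from 744 to 767 TPM in control libraries, and blue, orange and green (Ccl8, Ccl5 and Ccl2) fill most of every bar.

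The 7 ligands together reached 1041, 1152 and 797 TPM in LIGHT libraries, against 744, 767 and 752 TPM in control libraries. They were 64.7% to 77.8% of the summed TPM of 20 listed CC chemokine genes in LIGHT libraries and 77.3% to 79.4% in control libraries. LIGHT replicates 2 and 3 were below every control in this share and LIGHT replicate 1 was not. The list does not hold Ccl21c, Ccl21d and Ccl27b.

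The receptor Ccr2 had 7.42, 10.3 and 8.29 TPM in LIGHT libraries, against 3.10, 6.40 and 4.82 TPM in control libraries. The groups did not overlap. Its LIGHT mean exceeded the control mean by a factor of 1.82, and the log2 fold change was 0.77 ± 0.22 (SE), at a limma adjusted p = 0.04. This call lay close to the threshold: it passed without control replicate 2 or LIGHT replicate 1 and was lost without each of the other 4 libraries (limma adjusted p from 0.0690 to 0.111), and after trimmed-mean scaling (0.0859) or quantile scaling (0.11), and without the filter (0.071). Of the 6758 stretches of 50 bases in the GENCODE transcripts of Ccr2, 129 (1.9%) also occur in transcripts of other genes, 110 of them in another CC receptor gene. A small part of its reads could be counted elsewhere, and reads of those genes could be counted to Ccr2. No such stretch of the other 8 members is shared with another CC chemokine or receptor gene. Ccl9, however, shares 59 of its 2996 stretches (2.0%) with transcripts of 250 other genes, so the same limit holds for it.

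Ccr1 had 13.8, 16.5 and 14.8 TPM in LIGHT libraries, against 10.6, 11.5 and 12.8 TPM in control libraries. All LIGHT values were above all control values, yet the log2 fold change was 0.34 (SE 0.11) and missed the threshold (limma adjusted p = 0.0577), as it did in all 19 other settings.

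Ccr1 lies on chromosome 9 from 123962124 to 123968692 on the minus strand and Ccr2 from 124101950 to 124113557 on the plus strand (GRCm38, GENCODE vM21). Their promoter windows are shown because both receptors were higher in every LIGHT library, with that of Ccl9, the ligand whose change was as large as that of Ccl7 but more variable. RefSeq sequences (GRCm38.p6, 250 bases before to 50 after the transcript start, read along the gene's strand) were matched for 5 of the 9 genes: Ccl3, Ccl8, Ccl9, Ccr1 and Ccr2. Capitals mark matches on either strand to GGGNNNNNCC, a loose form of the NF-kB element, N being any base. The windows are chr9:123968643-123968942 on the minus strand for Ccr1, chr9:124101933-124102232 on the plus strand for Ccr2 and chr11:83578587-83578886 on the minus strand for Ccl9. For Ccr2 the starts in RefSeq and GENCODE differ. Nearly all of its window lies inside the GENCODE gene, which begins at 124101950, so the window does not show the sequence before that start.
Ccr1: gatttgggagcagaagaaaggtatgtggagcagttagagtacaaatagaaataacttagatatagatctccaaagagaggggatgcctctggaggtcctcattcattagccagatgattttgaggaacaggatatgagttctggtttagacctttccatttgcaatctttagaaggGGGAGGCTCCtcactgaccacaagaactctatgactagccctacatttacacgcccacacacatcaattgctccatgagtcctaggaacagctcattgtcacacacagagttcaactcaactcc
Ccr2: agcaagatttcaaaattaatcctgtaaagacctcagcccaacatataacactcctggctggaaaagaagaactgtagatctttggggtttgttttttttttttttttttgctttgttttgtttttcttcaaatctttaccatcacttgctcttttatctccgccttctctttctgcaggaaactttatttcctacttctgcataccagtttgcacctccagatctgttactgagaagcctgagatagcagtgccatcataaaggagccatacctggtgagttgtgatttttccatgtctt
Ccl9: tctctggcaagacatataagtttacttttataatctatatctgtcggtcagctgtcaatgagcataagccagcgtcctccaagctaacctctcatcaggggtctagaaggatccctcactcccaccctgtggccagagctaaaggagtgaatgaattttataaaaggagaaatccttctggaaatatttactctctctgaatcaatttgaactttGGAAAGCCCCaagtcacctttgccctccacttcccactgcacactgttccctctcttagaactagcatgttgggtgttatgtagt
Ccl9 and Ccr1 held 1 match each, which began 35 and 74 bases before the start, and Ccr2, Ccl3 and Ccl8 held none. The pattern is common, with a match in 50.8% of 32851 promoter windows of the same length. The AP-1 element TGANTCA was found in the window of Ccl9 and in 7.8% of all windows, and the interferon-stimulated response element GAAANNGAAA in none of the 5 genes and in 3.4% of all windows. TATAAA was found for Ccl8 and Ccl9 and in 13.6% of all windows. The AP-1 and TATAAA matches do not overlap that to GGGNNNNNCC in Ccl9. These matches describe the letters of the windows and say nothing of which factor is bound.

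The ligand genes fall in 2 groups of neighbours on chromosome 11. Ccl2 (82035571 to 82037453), Ccl7 (82045712 to 82047525) and Ccl8 (82115185 to 82116799) lie on the plus strand with Ccl11 and Ccl12 between them, and Ccl1 lies beyond on the minus strand. Ccl5 (83525778 to 83530518, minus), Ccl9 (83572919 to 83578636, minus), Ccl3 (83647844 to 83649355, minus) and Ccl4 (83662584 to 83664683, plus) lie further along with Ccl6. In the GENCODE annotation no exon of these genes overlaps one of another gene. In RefSeq (GRCm38.p6) the record of Ccl4 begins at 83648624, inside Ccl3, and the annotation and strand setting behind the deposited values are unknown, so the values of these 2 genes could share reads. Calls differed along the first group: Ccl7, Ccl12 and Ccl1 passed the threshold as higher, with log2 fold changes of 1.10, 1.23 and 1.13. Ccl2, Ccl8 and the eosinophil attractant Ccl11 (0.55, limma adjusted p = 0.0657) did not. The limma confidence intervals of Ccl8 (-0.09 to 1.04) and Ccl11 (0.13 to 0.97) overlapped that of Ccl7 (0.63 to 1.57), so their missed calls do not show a smaller change. The interval of Ccl2 (-0.52 to 0.59) lay below that of Ccl7. In the second group 0 of the 5 genes passed, where 17.7% of all genes tested were called higher. With so few genes this count cannot be told apart from that share, and the log2 fold change of Ccl9 was 0.98.

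**Figure D4:**
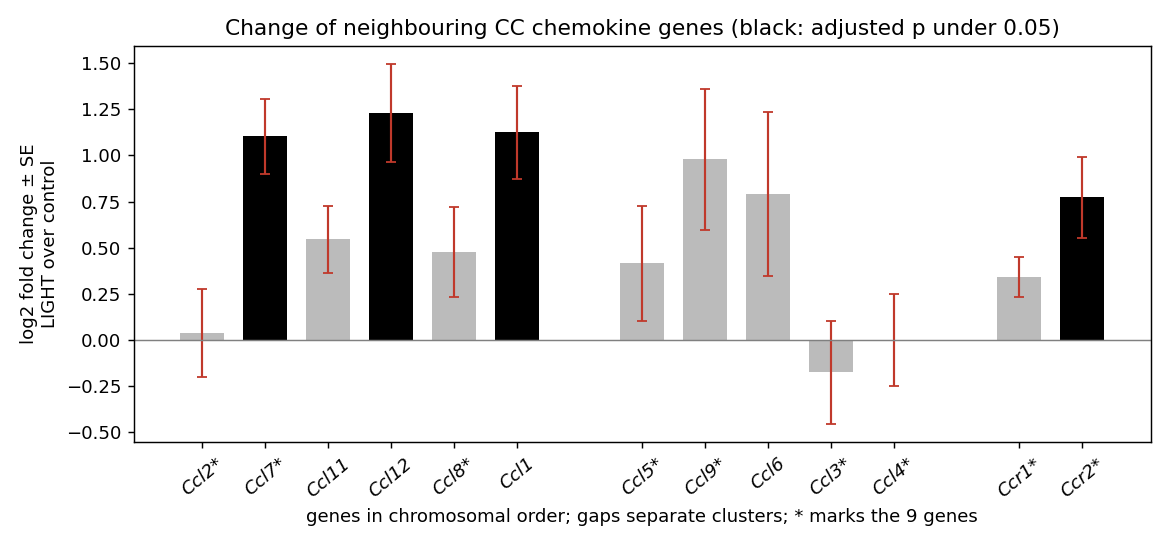
Log2 fold change (bars) with SE (red lines) of CC chemokine and receptor genes in chromosomal order; black bars have a limma adjusted p under 0.05 and stars mark the 9 genes. Black and grey bars alternate within the first cluster, the second cluster is grey throughout, and Ccr2 is black beside grey Ccr1.

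Among the other listed CC chemokines 7 of the 12 tested genes rose and 0 fell, with a median log2 fold change of 1.12, against 17.7% of all genes higher. The 4 with the smallest p were Ccl22, an attractant of Ccr4-bearing T cells (10.9, 12.8 and 14.8 TPM in LIGHT libraries, against 1.66, 2.01 and 2.01 TPM in control libraries), the Ccr7 ligands Ccl21a (log2 fold change 1.12), whose near-identical copies can share its reads, and Ccl19 (1.21), and the Ccr2 ligand Ccl12 (1.23, limma adjusted p = 0.0162). Ccl12 had 15.6, 24.5 and 12.3 TPM in LIGHT libraries, against 4.72, 8.41 and 7.09 TPM in control libraries. The groups did not overlap. Without LIGHT replicate 2 the count was 4 of 12. Atypical receptors are those that do not signal through Gi. Among these and the other CC receptors 3 of the 5 tested genes rose and 0 fell: Ccr8, Ccr7 and Ackr1, with log2 fold changes of 1.12, 1.01 and 0.67. The count was 2 when LIGHT replicate 2 or 3 or any control replicate was left out. The remaining 6 of the 11 were too low to be tested.

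Of 23 genes of the signalling machinery below these receptors 17 rose and 0 fell, against 17.7% of all genes tested higher and 5.41% lower. Their median log2 fold change was 0.64. The 4 with the smallest p were Prex1, a Rac activator (0.90), Plcb2, a phospholipase (0.84), Arrb1, an arrestin that ends receptor signalling (0.83), and Gng2, a G protein subunit (0.84). The count was 10 without control replicate 2. After trimmed-mean scaling 13 were higher and 1 lower, and after quantile normalization 12 and 1. Without LIGHT replicate 1 the counts were 13 and 1, and with the replicate number as a block 15 and 1. Nup85, a nuclear pore protein also reported to bind human CCR2, had 35.6, 31.7 and 30.3 TPM in LIGHT libraries. In control libraries it had 41.1, 40.9 and 37.2 TPM, and it missed the threshold (limma adjusted p = 0.065). It is named after its values were seen.

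Of 15 tested inducers of inflammatory chemokines 4 rose and 1 fell, where 17.7% of all genes tested were called higher and 5.41% lower. The 4 that rose were Irf5 and Irf1, interferon regulatory factors (log2 fold change 0.52 and 0.68), Ifng, the T and natural killer cell cytokine (1.42), and Csf1, the macrophage growth factor (0.65). The endotoxin receptor Tlr4 fell by 0.36 on the log2 scale. Tnf, with 37.7, 35.0 and 28.3 TPM in LIGHT libraries and 31.6, 26.3 and 21.5 TPM in control libraries, did not pass (limma adjusted p = 0.161), nor did Il1b (0.365). These 2 were named after their values were seen. Without control replicate 3 the inducers numbered 1 higher and 1 lower, without LIGHT replicate 2 they numbered 2 and 0, after quantile normalization 2 and 1, and after trimmed-mean scaling 2 and 2, where their median log2 fold change was -0.03, against 0.10. The call of Tlr4 was also lost without control replicate 1 or 2 or LIGHT replicate 3, with pseudocounts of 0.1 or 0.5, without the filter, with robust eBayes and with each marker covariate, and Tlr4 was below the 5 TPM filter. Of 11 heparan sulfate genes 4 rose and 0 fell, Gpc1 (1.23), Sdc3 (0.94), Sdc2 (0.43) and Hs6st1 (0.44), the first 3 encoding core proteins that carry the glycan. Leaving out control replicate 2, control replicate 3 or LIGHT replicate 3 reduced this count to 2.

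Markers of the cells that carry these receptors moved unevenly. Of 15 classical monocyte markers 2 rose, Ly6c2 and Csf1r, and 0 fell, where 17.7% of all genes tested were called higher and 5.41% lower. The summed level of the 15 was 417 to 486 TPM in LIGHT libraries and 409 to 447 TPM in control libraries. Ly6c2, a surface antigen of classical monocytes that T cells also carry, had 53.9, 43.8 and 41.6 TPM in LIGHT libraries, against 18.4, 29.6 and 30.4 TPM in control libraries. The markers of this list with the highest levels besides Csf1r, Ifi204 and Plac8, did not pass, with log2 fold changes of -0.05 and -0.29. Without LIGHT replicate 1 or after trimmed-mean scaling the count was 1 of 15. Of 7 tested patrolling monocyte markers 6 rose, and all 9 listed summed to 81.9 to 85.8 TPM in LIGHT libraries and 32.3 to 42.2 TPM in control libraries. It fell to 3 markers when control replicate 3 or LIGHT replicate 3 was left out, and after quantile normalization, and several of these markers, such as Spn and Itgal, are also expressed by T cells. Of 12 tested macrophage markers 7 rose and 0 fell, and all 14 listed summed to 1568 to 2152 TPM in LIGHT libraries and 925 to 1040 TPM in control libraries, led by Apoe, C1qa and C1qb. Csf1r belongs to both the classical monocyte and the macrophage list.

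Ccr2 per Csf1r, the receptor for the macrophage growth factor, was 0.157 to 0.202 in LIGHT libraries and 0.111 to 0.258 in control libraries, and the groups overlapped. Ccr2 per Adgre1, a macrophage surface receptor, was 1.47 to 1.85 in LIGHT libraries and 0.904 to 1.33 in control libraries, without overlap. Adgre1 itself was not called (log2 fold change 0.36, limma adjusted p = 0.179), whereas 7 of the 12 tested macrophage markers rose. Ccr2 per Ptprc, a general leukocyte gene, was 0.262 to 0.411 in LIGHT libraries and 0.271 to 0.389 in control libraries, with overlap. Ccr2 per Cd3e, a T cell receptor subunit, was 0.42 to 0.597 in LIGHT libraries and 0.826 to 1.59 in control libraries, so the level of Cd3e differed by a larger factor between the groups than that of Ccr2. Ccr1 per Csf1r was 0.292 to 0.36 in LIGHT libraries and 0.379 to 0.462 in control libraries. Of these 4 ratios, among the 16 computed, that of Ccr2 to Csf1r had an exact two-sided permutation p = 0.6 (0.738 adjusted over the 16) and the others had p = 0.1 (0.4 adjusted). The part of monocyte, macrophage or T cell content in the values of Ccr1 and Ccr2 was not tested on its own.

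Over the 6 libraries the genes whose log2(TPM + 1) was most like that of Ccr2 were Hcfc1r1 (Pearson r = 0.997), Dennd2d (0.994) and Rex1bd (0.994). For Ccl2 they were Sar1b (0.989), Rae1 (0.987) and Ift57 (0.985). These are descriptions among 12755 genes compared. Of these, 495 had an r above 0.9 with Ccr2, whose LIGHT and control values do not overlap, and 93 had an r above 0.9 with Ccl2.

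Tnfsf14 itself was at 26.2, 25.9 and 23.9 TPM in LIGHT libraries and 0.66, 0.53 and 0.79 TPM in control libraries, as the labels say. Squamous epithelial markers summed to 20154 to 29600 TPM in LIGHT libraries and 28598 to 34441 TPM in control libraries, and skeletal muscle markers to 4646 to 7634 TPM in LIGHT libraries and 3042 to 5448 TPM in control libraries. Haemoglobin and other red cell genes ranged from 119 to 2086 TPM in LIGHT libraries and from 70.0 to 453 TPM in control libraries. B cell markers summed to at most 3.48 TPM in any library. No marker in any list was at 0 in all 6 libraries. The labels name no batch.

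**Figure D5:**
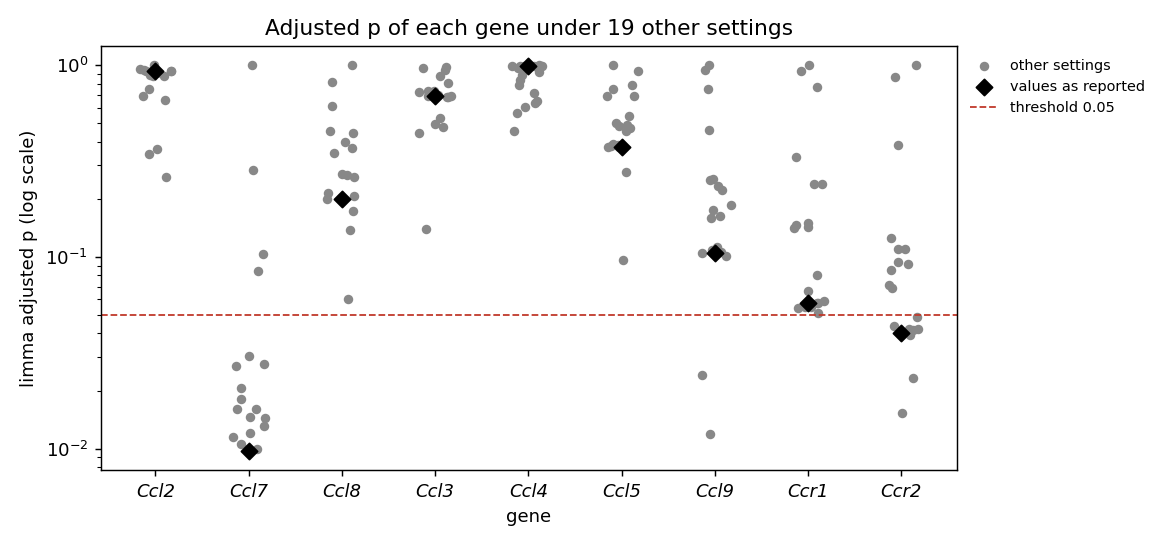
Limma adjusted p (log axis) of each of the 9 genes as reported (diamonds) and under 19 other settings (grey points), with the threshold of 0.05 as a dashed line. Ccl7 lies below the line in 15 of 19 settings and Ccr2 in 8, while Ccl9 does so in 2 and the other 6 genes in none.

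Across 19 other settings Ccl7 was called in 15, Ccr2 in 8 and Ccl9 in 2, and the other 6 genes in none. Ccl7 was higher in LIGHT tumours in all 19, with log2 fold changes from 0.79 to 1.70. The 4 settings that lost its call added the mean of a cell type marker list as a covariate, which widened its SE to between 0.31 and 0.60, and which left 0 to 639 genes higher among all those tested.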

How the data were processed

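RNA sequencing values of 3 LIGHT and 3 control tongue tumours were used. The authors deposited TPM per gene, 1 column per library per the file headers, rounded to 2 decimals and summing to the same total in each library over 18437 genes. Per the submitters' processing notes, HISAT and Bowtie2 were used and the build was GRCm38.p6. No role or version is stated. The sources used here do not give the quantifier, the annotation or any filter. Depth is unknown, so no counting interval is given. Values are shares, so abundant genes that rise lower the rest.

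The 13167 genes that reached 1 TPM in 3 or more libraries entered a 2-sided limma fit (version 3.58.1, R 4.3.3) of log2(TPM + 1), moderated with a variance trend, and were called at a Benjamini-Hochberg adjusted p under 0.05 over all of them. Exact permutation tests used scipy 1.17.1. The 9 genes and all lists were chosen with earlier results of these data known. Some genes of the lists are not reported here and were left out of their counts. Named besides the 9 genes were Tnfsf14, up to 4 genes per pathway list by smallest p, up to 3 per marker list by highest mean, and the 3 genes most like Ccl2 and Ccr2. The chromosomal neighbours Ccl1, Ccl6 and Ccl11 were named after their values were seen. Further names are marked likewise, stand for a called gene or a ratio, or are given without values.

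Alternatives were pseudocounts of 0.1 and 0.5, no filter, a minimum of 5 TPM, quantile normalization, scaling by an unweighted trimmed mean of log ratios (trimming 30% of ratios and 5% of levels at both ends), omission of single libraries, the replicate number as a block, 4 marker covariates (macrophage, classical monocyte, T and natural killer cell, skeletal muscle), eBayes without the trend and robust eBayes. The fit was tested on simulated data. Replicate numbers were not treated as pairing the libraries. Coordinates are from GENCODE vM21 (GRCm38) and promoters from RefSeq (GRCm38.p6). Figures were drawn with matplotlib 3.10.9.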

Additional observations from a re-analysis of the deposited data

How the results depend on the processing

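The genes higher in LIGHT tumours numbered 2325, with 1399 after quantile normalization and 1264 to 2027 with 1 library left out. The genes lower in LIGHT tumours numbered 712, with 2005 after trimmed-mean factors, 1811 after quantile normalization and 325 to 791 with 1 library left out. These 2 scalings moved the median log2 fold change of all genes to -0.04, against 0.09 as deposited. With the macrophage, classical monocyte, T and natural killer or skeletal muscle covariate 3, 322, 0 and 639 genes were higher and 1, 66, 0 and 98 lower. The cause was not tested. Each covariate takes 1 of 4 residual degrees of freedom. Summed macrophage markers (1568 to 2152 TPM in LIGHT libraries, 925 to 1040 TPM in control libraries) did not overlap between the groups. Nor did summed T and natural killer cell markers (331 to 416 TPM and 84.0 to 207 TPM), so the marker levels behind these covariates follow the group. Of the 9 genes 2 were higher, with 1 without the filter, after trimmed-mean factors or after quantile normalization, 1 to 3 with 1 library left out, and 0 with each covariate. None of the 9 was lower in any setting, at 0 of 9 throughout. The log2 fold change of Ccl7 after trimmed-mean factors was 0.97 (limma adjusted p = 0.0144).

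Directions that turned were all of values not past the threshold in those settings. Ccl2 was -0.099 after trimmed-mean factors, -0.058 after quantile normalization, -0.26 with the muscle covariate and -0.24 to 0.30 with 1 library left out. Ccl3 was 0.081, 0.58 and 0.27 with the macrophage, monocyte and muscle covariates, and -0.48 to 0.039 with 1 library left out. Ccl4 was 0.43 and 0.34 with the monocyte and muscle covariates and -0.24 to 0.23 with 1 library left out. With the macrophage covariate Ccl5, Ccl8, Ccl9 and Ccr1 were -0.19, -0.90, -0.17 and -0.050. With the T and natural killer covariate Ccl8 and Ccr2 were -0.15 and -0.27.

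With the replicate block 3 of the 9 genes were higher (Ccl7, Ccr2 and Ccl9, limma adjusted p = 0.0269, 0.0153 and 0.0241), and 2325 and 907 of all genes higher and lower. The block also ended the call of Tlr4 as lower. Same-numbered libraries correlated at 0.37, 0.237 and 0.01 in their deviations from group means. The value of 0.37 was the highest of all pairs, while LIGHT replicate 2 correlated best with control replicate 3 (0.332). With 3 libraries a group these values cannot show whether equal numbers stand for a pair or a shared batch. Depth is unknown, and with 3 libraries a group an exact test cannot go below p = 0.1.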
